A study of Sus scrofa with 12 samples.

Results

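The SLC25 genes encode the mitochondrial carriers, transport proteins that lie mostly in the inner mitochondrial membrane. They were taken as the protein-coding genes of the pig annotation (Sscrofa11.1, RefSeq) whose symbol starts with SLC25A, which gave 45 of 20663 protein-coding genes. Of these, 44 lay on chromosomes 1 to 18, X and Y, among 19550 protein-coding genes there. SLC25A6, which encodes an ADP/ATP carrier, had no chromosome in the gene table and was not analysed here. Family members that go by other names, such as the uncoupling proteins UCP1 to UCP3, were left out of the set by its rule and are described with a second list.

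Endometrium, the lining of the uterus, was collected from pregnant pigs on day 15 and on day 12 of pregnancy, and the DNA carried down by an antibody to the transcription factor C/EBP-β was sequenced (ChIP). Day 15 and day 12 each have 3 ChIP libraries, whose 6 inputs were not used here. The labels give no treatment, breed or genotype and leave unsaid whether replicates are separate animals, so the spread between libraries may be technical. Each library is a list of peak summits, single positions to which the authors gave a score.

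Carriers exchange small molecules between the cytosol and the mitochondrial matrix. The family includes carriers for ADP and ATP, phosphate, amino acids, carboxylates of the citric acid cycle, cofactors, iron and glutathione. C/EBP-β, a leucine zipper factor, has known roles in metabolism and in the differentiation of the endometrial stroma. In the pig, conceptuses elongate around the earlier of these days and have begun to attach by the later one. The roles given for single carriers are known mainly from work on human, mouse and yeast proteins. The lists record where summits lay. They measure neither expression nor transport.

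The libraries differed widely in length. On the chromosomes, day 15 replicates 1, 2 and 3 had 70152, 16529 and 11960 summits, and day 12 replicates 1, 2 and 3 had 6557, 33294 and 57728. The peak names divide the libraries into sets: set A (names with a directory path) holds day 15 replicates 2 and 3 and day 12 replicate 1, and set B holds day 15 replicate 1 and day 12 replicates 2 and 3. Set B therefore holds the 3 longest lists. In their peak names, day 15 replicates 2 and 3 share a sample code, and that of replicate 3 does not mention the protein. Read depth is unknown, since the files hold no counts. Of 18 marker genes of endometrial epithelium, stroma, endothelium and leukocytes, 2 had no summit near an end in any library, the leukocyte genes PTPRC and CD3E. By the rule of at least 2 of 3 libraries, 6 of 6 stroma markers had a summit on day 15 and 2 of 6 on day 12, and 4 of 6 epithelium markers on each day. For the 3 endothelium and the 3 leukocyte markers it was 1 on each day. The part of stroma in the differences between days given below was not tested. Of 4 genes of other organs, 3 had none, and APOA2, a liver gene, had a summit in all 6 libraries.

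Most carrier genes had a C/EBP-β summit nearby, at most 5 kb from a gene end. The gene table gives no strand, so both ends were counted, and a start cannot be told from an end. Such a summit was found for 39, 29 and 25 of the 44 carrier genes in day 15 replicates 1, 2 and 3, and for 12, 24 and 34 in day 12 replicates 1, 2 and 3. The number followed the length of the list within each day. Day 15 replicate 1 had 81 summits near carrier genes and day 12 replicate 1 had 13.

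A gene was counted as called on a day when such a summit was present in at least 2 of the 3 libraries of that day. On day 15, 30 of 44 carrier genes were called (68.2%), against 46.3% of all protein-coding genes. On day 12, 25 were called (56.8%), against 38.1% of all protein-coding genes. Both days shared 20 called carrier genes, 10 were called on day 15 and not on day 12, 5 on day 12 and not on day 15, and 9 on neither day. The same split over all genes is not given here, so it cannot be read as a result about the carriers. Near the threshold, 7 genes were called on day 15 with exactly 2 libraries and 10 missed with 1. On day 12 these numbers were 14 and 9. The day 12 count was 12 with replicate 2 of that day left out and 11 with replicate 3 left out. With replicate 1, the shortest list, left out it was 24. In each case both remaining libraries had to have a summit, and the matching shares of all genes are not given here.

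The share of carrier genes exceeded that of all genes by a similar factor in every library. In day 15 replicates 1, 2 and 3, 88.6%, 65.9% and 56.8% of the carrier genes had a summit near an end, against 64.8%, 44.6% and 37.6% of all protein-coding genes. In day 12 replicates 1, 2 and 3 the shares were 27.3%, 54.5% and 77.3% of the carrier genes, against 17.2%, 38.4% and 54.1% of all genes. The ratio of both shares averaged 1.45 ± 0.0755 on day 15 and 1.48 ± 0.0933 on day 12 (SD, n = 3 each), and lay between 1.37 and 1.58 over the 6 libraries. The ratios of the days overlapped.

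The mean share of carrier genes was 70.5% ± 16.4 on day 15 and 53.0% ± 25.03 on day 12 (SD, n = 3 each). The difference of 17.4 percentage points was smaller than the spread on day 12. Leaving out day 12 replicate 1 made it 4.55 points, leaving out day 15 replicate 1 made it 8.33, and leaving out day 12 replicate 3 made it 29.5. Over all protein-coding genes the share was 49.0% ± 14.1 on day 15 and 36.6% ± 18.5 on day 12. That difference of 12.4 points gave p = 0.5 in a two-sided exact permutation test, where 3 against 3 libraries cannot go below 0.1. With the same libraries left out in turn it was 2.70, 4.49 and 21.2 points. Within set A, with 1 library on day 12, the carrier share was 34.1 points higher on day 15. Within set B, with 1 library on day 15, it was 22.7 points higher. For all genes these values were 23.9 and 18.5 points. In both sets the day 15 lists were longer than the day 12 lists. With every list cut to its top 6557 summits by score, the carrier differences were 12.5 points in set A and 3.41 in set B. For all genes they were then 7.15 and 0.931 points.

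**Figure D1:**
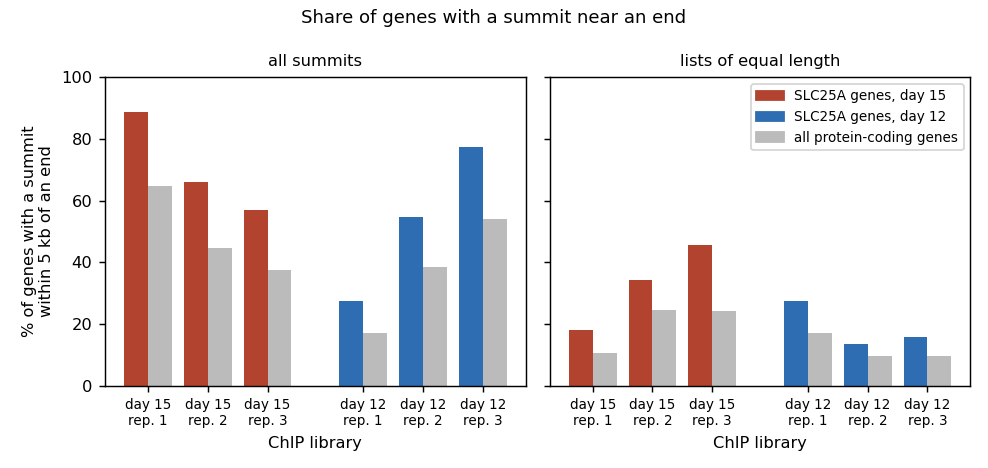
Share of genes (%) with a summit at most 5 kb from an end, by ChIP library, for SLC25A genes (red on day 15, blue on day 12, 44 genes) and all protein-coding genes (grey, 19550 genes). The left panel uses all summits and the right panel the 6557 with the highest scores per library. The carrier bar stands above the grey bar in all 6 libraries of both panels.

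With lists of equal length, the 6557 highest-scoring summits of each library, fewer carrier genes had a summit. They numbered 8, 15 and 20 in day 15 replicates 1, 2 and 3, and 12, 6 and 7 in day 12 replicates 1, 2 and 3. Called on day 15 were then 16 carrier genes (36.4%), against 20.3% of all genes. On day 12 it was 8 carrier genes (18.2%), against 9.68% of all genes. Only SLC25A28 kept a summit in all 6 libraries (2.27% of the carrier genes), against 3.53% of all genes. The carrier share was thus the lower here, whereas with all summits it was 20.5% against 13.1%. The order of the libraries changed with this setting, and the highest values lay in day 15 replicates 2 and 3 of set A.

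Other solute carriers, the 306 genes with SLC symbols outside this family, were called less often, without a test of that difference. Of them, 35% were called on day 15 and 37.9% on day 12, against 46.3% and 38.1% of all protein-coding genes. A list of other mitochondrial carriers, channels and carrier import factors was closer to the SLC25A genes. Of its 32 genes found in the table, 21 were called on day 15 (65.6%), 18 on day 12 (56.2%) and 7 had a summit in all 6 libraries (21.9%, against 13.1% of all protein-coding genes). The last were MTCH1, MPC2, SFXN2, SFXN5, TIMM22, VDAC1 and ABCB10. MPC2 encodes a subunit of the mitochondrial pyruvate carrier, TIMM22 the channel that inserts carriers into the inner membrane, and VDAC1 a porin of the outer membrane. UCP2 and UCP3, genes of uncoupling proteins, had no summit near an end in any library.

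**Figure D2:**
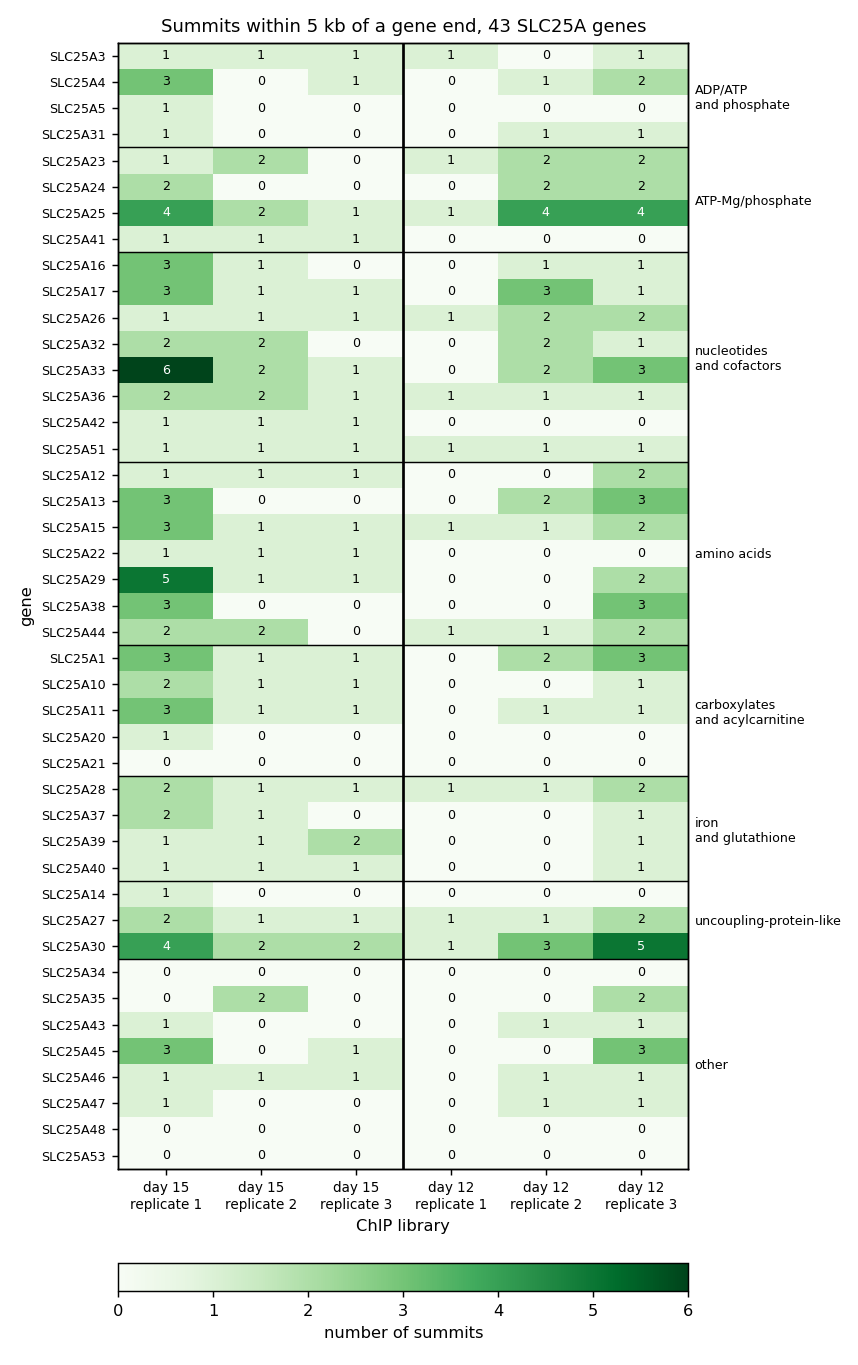
Number of summits within 5 kb of a gene end for 43 of the 44 SLC25A genes (lines, grouped by substrate) in the 3 day 15 and 3 day 12 libraries (columns). SLC25A33 has the highest number, 6 in day 15 replicate 1, and 4 genes, SLC25A21, SLC25A34, SLC25A48 and SLC25A53, have 0 in all 6 libraries.

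Carriers of nucleotides and cofactors were the substrate group with most calls. All 9 were called on day 15, 8 on day 12, and 4 had a summit in all 6 libraries. Of the 7 amino acid carriers, 5 were called on day 15 and 3 on day 12. Of the 5 carriers of carboxylates and acylcarnitine, 3 were called on day 15 and 2 on day 12. Of the 4 carriers of iron and glutathione, 4 were called on day 15 and 1 on day 12. Of the 4 ADP/ATP and phosphate carriers analysed, 2 were called on day 15 and 3 on day 12, and of the 4 ATP-Mg/phosphate carriers 3 on each day. Of the 3 uncoupling-protein-like carriers 2 were called on each day, and of the 8 remaining genes 2 on day 15 and 3 on day 12. Over all protein-coding genes, 46.3% were called on day 15, 38.1% on day 12, and 13.1% had a summit in all 6 libraries. These groups are small, and differences between them, or from all genes, were not tested.

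A summit near an end in all 6 libraries was found for 9 carrier genes (20.5%), against 13.1% of all protein-coding genes. They included SLC25A15, SLC25A25, SLC25A26, SLC25A27, SLC25A28, SLC25A30, SLC25A36 and SLC25A51. Without day 12 replicate 1, the shortest list, the number was 14, and the share of all genes without that list is not given here. Summits up to 200 bp apart, whatever their library, were merged to regions, and 5 of these genes had a single region with a summit from every library. The positions are on the build susScr11 (Sscrofa11.1).

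SLC25A51, the carrier of NAD, had 1 summit in each of the 6 libraries, all inside the gene between 40 and 84 bp from its end of higher coordinate (chromosome 1, 238667528 to 238667572). The score percentile of the region within each list was 62.3, 78.2 and 66.4 in day 15 replicates 1, 2 and 3, and 54.3, 14.8 and 28.1 in day 12 replicates 1, 2 and 3. It therefore ranked higher in all 3 day 15 lists than in any day 12 list. Ranks come from lists of different length and show no change of binding.

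SLC25A26, the carrier of S-adenosylmethionine, had its shared region across the lower end of the gene (chromosome 13, 47743428 to 47743630). The distance of the closest summit to the end was 9, 0 and 154 bp in day 15 replicates 1, 2 and 3, and 62, 48 and 24 bp in day 12 replicates 1, 2 and 3. The next protein-coding gene, LRIG1, overlaps SLC25A26 at its other end, 165.4 kb away from this region. The percentile was lowest, 8.98, in day 12 replicate 1 and highest, 95.6, in day 15 replicate 1.

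SLC25A27 (UCP4), an uncoupling-protein-like carrier of neural tissue, shared a region outside its lower end (chromosome 7, 41425927 to 41426046). Its percentiles were 79.7, 76.6 and 69.1 in day 15 replicates 1, 2 and 3, and 63.6, 63.6 and 69.3 in day 12 replicates 1, 2 and 3. The region lay 115 bp from SLC25A27 and 73 bp from CYP39A1, an oxysterol hydroxylase gene, so it cannot be assigned to either. This was the shared region with the narrowest range of percentiles.

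SLC25A30, also uncoupling-protein-like, had several sites and no end of another protein-coding gene within 5 kb. Its shared region lay inside the gene, 2 kb from the higher end (chromosome 11, 21870734 to 21870772), at percentiles 98.0, 51.0 and 27.0 in day 15 replicates 1, 2 and 3, and 70.1, 95.1 and 98.7 in day 12 replicates 1, 2 and 3. The 3 libraries of set B had the highest of these. A second region, 94 bp outside the same end, had summits in 4 libraries, and another, 2.76 kb outside it, in 3 libraries, all of set B.

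SLC25A15, the ornithine carrier of the urea cycle, had its shared region 2.75 kb outside the lower end (chromosome 11, 15491325 to 15491431), with LOC106505276 3.31 kb away. The percentiles were 98.9, 77.1 and 84.3 in day 15 replicates 1, 2 and 3, and 16.8, 70.0 and 94.0 in day 12 replicates 1, 2 and 3. Day 12 replicate 1 stood lowest.

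**Figure D3:**
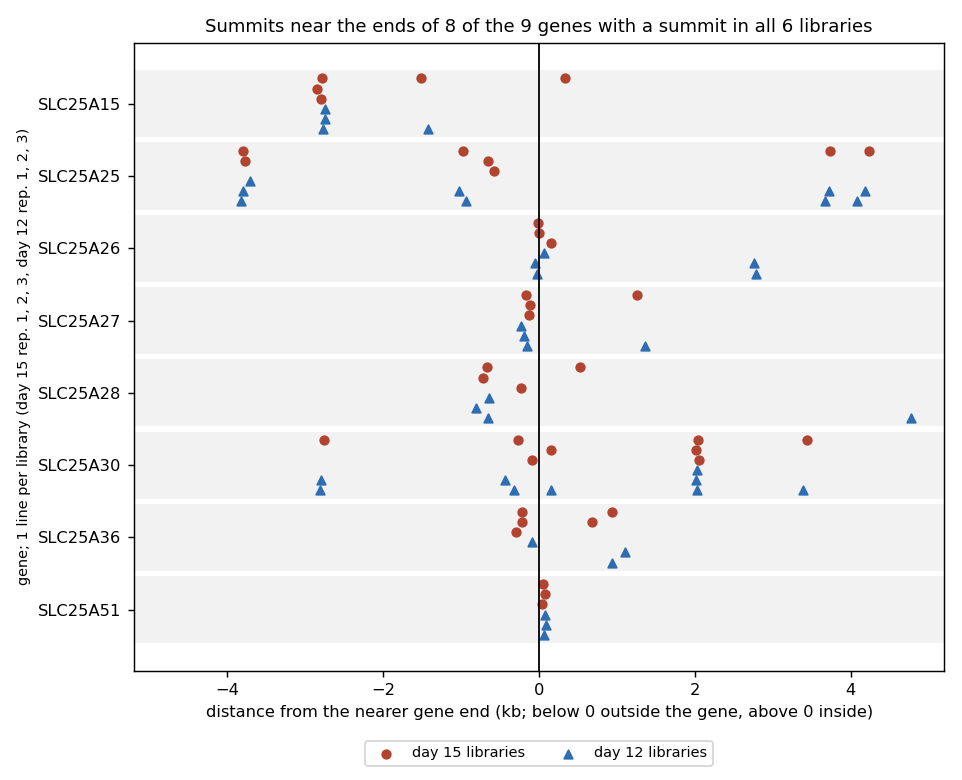
Distance (kb) of each summit near 8 of the 9 SLC25A genes with a summit in all 6 libraries from the nearer gene end, below 0 outside and above 0 inside the gene. Red points are day 15 libraries and blue triangles day 12 libraries, with 1 line per library. SLC25A51, SLC25A27 and SLC25A26 have a tight group of summits at an end, whereas the summits of SLC25A25 and SLC25A30 fall at several places.

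SLC25A28, mitoferrin 2, which carries iron for haem and iron-sulphur clusters, ranked high in every list. The best summit within 5 kb stood at percentile 97.9, 87.7 and 94.0 in day 15 replicates 1, 2 and 3, and 80.1, 81.1 and 94.8 in day 12 replicates 1, 2 and 3. Summits of 5 libraries formed a region that began 639 bp outside the higher end (chromosome 14, 110806270 to 110806437), and the best summit of day 15 replicate 3 lay closer, 237 bp outside the same end. The lowest of these values, 80.1, was above the lowest value of each of the other 8 genes. The next protein-coding gene end lay 21.4 kb from the region.

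SLC25A25, a calcium-regulated ATP-Mg/phosphate carrier, had summits at several places. It had 4, 2 and 1 near an end in day 15 replicates 1, 2 and 3, and 1, 4 and 4 in day 12 replicates 1, 2 and 3. Inside the gene and over 5 kb from both ends it had 4, 3 and 3 more on day 15 and 0, 2 and 2 on day 12. Both body regions with most libraries had summits in every library except day 12 replicate 1 (chromosome 1, 268560913 to 268561259 and 268565552 to 268565808).

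SLC25A36, a pyrimidine nucleotide carrier, had a region 96 bp outside its lower end in 3 day 15 libraries and 1 day 12 library (chromosome 13, 81749888 to 81750093). A region 928 bp inside the gene had summits of 1 day 15 and 2 day 12 libraries, all of set B. The related carrier SLC25A33 was called on both days, with 6, 2 and 1 summits in day 15 replicates 1, 2 and 3 and 0, 2 and 3 in day 12 replicates 1, 2 and 3. Its main region lay across the lower end in 5 libraries (chromosome 6, 69934809 to 69935079).

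More carrier genes had a summit near an end in more day 15 than day 12 libraries than the reverse. This held for 19 genes (43.2%), with 7 the other way (15.9%) and 18 equal. Over all genes the shares were 35.3% and 11.2%. A difference of at least 2 libraries in favour of day 15 was found for 8 carrier genes (18.2%), against 11.8% of all genes, and in favour of day 12 for 0, against 1.58%. No test of a single gene was made, since 3 against 3 libraries cannot give an exact permutation p below 0.1.

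Every day 15 library and no day 12 library had a summit for 3 carrier genes, SLC25A22, SLC25A41 and SLC25A42, against 2.83% of all genes. The reverse was found for 0, against 0.0307%. With lists of equal length no carrier gene had either pattern, and each of them held for 0.292% of all genes. Which genes had the day 15 pattern also depended on the score. With scores of at least 2, the difference between days fell from 3 to 2 libraries for SLC25A41 and SLC25A42. With scores of at least 5 it was 2 for SLC25A22, SLC25A41 and SLC25A42, and 3 for SLC25A10. Without day 12 replicate 3 the number of carrier genes with the day 15 pattern was 8. The share of all genes without that library is not given here, so this rise cannot be set against them.

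SLC25A22, a glutamate carrier, had 1 summit in each day 15 library, all inside the gene. They lay 323, 564 and 137 bp from its higher end in day 15 replicates 1, 2 and 3, at percentiles 63.2, 28.3 and 49.5. Those of replicates 1 and 3 fell in the same region and that of replicate 2 did not. PIDD1 was the next gene, 658 bp from the closest summit.

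SLC25A41, an ATP-Mg/phosphate carrier gene, had 1 region with a summit in every day 15 library and no day 12 library (chromosome 2, 72656362 to 72656469). It was the only one of the 115 regions near carrier genes with this pattern, whose share over regions near all genes is not given here. The percentiles were 2.21, 69.7 and 58.6 in day 15 replicates 1, 2 and 3. The region lay 1.12 kb from SLC25A41 and 482 bp from KHSRP, the gene of an RNA-binding protein, which was the nearer gene.

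SLC25A42, a carrier of coenzyme A, had summits at different places in the day 15 libraries. That of replicate 1 lay 2887 bp inside the lower end, and those of replicates 2 and 3 lay 1356 and 1254 bp inside the higher end. The summit of replicate 2 was among the weakest of its list, at percentile 0.424.

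The other 5 genes with a difference of 2 libraries had a summit in every day 15 library and in day 12 replicate 3, the longest day 12 list. SLC25A10, the dicarboxylate carrier, had the 4 summits in 1 region, 116 bp from its higher end (chromosome 12, 1197555 to 1197696). The percentiles were 37.3, 32.8 and 65.4 in day 15 replicates 1, 2 and 3, and 2.298 in day 12 replicate 3. The day 12 summit was near the bottom of its list.

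SLC25A12, an aspartate/glutamate carrier of the malate-aspartate shuttle, had summits on both sides of its higher end. A region 211 bp outside held summits of day 15 replicates 2 and 3 and day 12 replicate 3, at percentiles 15.7, 30.5 and 12.8. The end of HAT1 was nearer to it, 6 bp away. Another region, 260 bp inside SLC25A12, held summits of day 15 replicate 1 and day 12 replicate 3, at percentiles 76.1 and 54.9. There SLC25A12 was the nearest gene. SLC25A40, a glutathione carrier, had summits outside its lower end at 719, 81 and 166 bp in day 15 replicates 1, 2 and 3 and at 709 bp in day 12 replicate 3. Those of day 15 replicate 1 and day 12 replicate 3, both of set B, fell in the same region.

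SLC25A39, the other glutathione carrier, had summits of day 15 replicates 2 and 3 inside the gene, 1044 and 1081 bp from the lower end, at percentiles 88.5 and 74.8. The day 12 replicate 3 summit lay outside that end, at 701 bp and percentile 87.2. With a window of 1 kb, day 12 replicate 3 was the 1 library left, so that the difference turned to -1 library. SLC25A29, a carrier of basic amino acids, had 5, 1 and 1 summits in day 15 replicates 1, 2 and 3, and 0, 0 and 2 in day 12 replicates 1, 2 and 3.

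The processing sets also divided the family. A summit in all 3 libraries of set B and none of set A was found for 5 carrier genes (11.4%), against 5.87% of all genes. These were SLC25A13, SLC25A24, SLC25A31, SLC25A43 and SLC25A47. The reverse was found for 0, against 0.0205% of all genes. These are also the 5 genes called on day 12 and not on day 15, since set B holds 2 of the 3 day 12 libraries. Their summit in day 15 replicate 1 (set B) and its absence in day 12 replicate 1 (set A) follow from this selection. Set B also holds the 3 longest lists, so set and list length cannot be told apart.

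SLC25A31, the ADP/ATP carrier of the male germ line, had a summit inside the gene at 3267 bp from its higher end in day 15 replicate 1 (percentile 98.1) and at 3299 and 3263 bp in day 12 replicates 2 and 3 (78.7 and 95.2). The other 3 libraries had none. SLC25A24 had regions 4.62 kb outside and 838 bp inside its lower end, each in these same 3 libraries, and no other protein-coding gene end lay within 5 kb of it.

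The remaining ADP/ATP and phosphate carriers differed among themselves. SLC25A3, the phosphate carrier, had a region across its higher end in 5 libraries (chromosome 5, 85292242 to 85292634), with percentiles of 58.8, 88.2 and 97.1 in day 15 replicates 1, 2 and 3, and 10.3 and 60.2 in day 12 replicates 1 and 3. SLC25A4, the ADP/ATP carrier of heart and muscle, had 3, 0 and 1 summits in day 15 replicates 1, 2 and 3, and 0, 1 and 2 in day 12 replicates 1, 2 and 3. SLC25A5, the ADP/ATP carrier of proliferating cells, had 1 summit in day 15 replicate 1, 150 bp outside the gene, and none in the other 5 libraries.

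Among the carboxylate carriers, SLC25A11, the oxoglutarate carrier, and SLC25A1, the citrate carrier, had summits in 5 of 6 libraries each. The region of SLC25A11 lay 32 bp from its lower end and 15 bp from RNF167 (chromosome 12, 51970458 to 51970826). The percentiles of its best summits were 65.8, 78.9 and 87.0 in day 15 replicates 1, 2 and 3, and 16.2 and 35.6 in day 12 replicates 2 and 3. SLC25A20, the carnitine/acylcarnitine carrier of fatty acid oxidation, had 1 summit near an end, in day 15 replicate 1.

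Mitoferrin 1, SLC25A37, had a summit near an end in day 15 replicates 1 and 2 and in day 12 replicate 3. A body region 10.3 kb inside its lower end had summits in 2 libraries of each day (chromosome 14, 7675326 to 7675360). Its median percentile was 90.3 in those 4 libraries.

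SLC25A16, SLC25A17, SLC25A23, SLC25A32, SLC25A44 and SLC25A46 had a summit near an end in 4 or 5 libraries. SLC25A23 is an ATP-Mg/phosphate carrier gene whose nearest neighbours are CRB3 and SLC25A41. Its best summits ranked at percentile 96.0 and 37.6 in day 15 replicates 1 and 2, and at 80.4, 91.2 and 92.4 in day 12 replicates 1, 2 and 3. SLC25A46, which acts in the shape of the mitochondrial network at the outer membrane, had a region across its lower end in 3 day 15 libraries and 1 day 12 library (chromosome 2, 115529517 to 115529676). The best percentiles near SLC25A46 were 32.6, 58.6 and 73.7 in day 15 replicates 1, 2 and 3. They were 3.42 and 16.9 in day 12 replicates 2 and 3, and day 12 replicate 1 had no summit there. The summit of day 12 replicate 3 lay outside this region, 393 bp inside the gene. As lists differ in length, these ranks show no change of binding. The genes with a summit near an end in the fewest libraries, besides those already named, were SLC25A14, with 1 library, and SLC25A35 and SLC25A38, with 2 each. SLC25A45 had 3 libraries.

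A summit near an end in no library was found for 4 carrier genes (9.09%), against 29.5% of all genes. SLC25A53 had none in the gene body either, and SLC25A34, at 4.8 kb, is too short to have a part over 5 kb from both ends. SLC25A48 had 1 body summit, in day 12 replicate 3. SLC25A21, the oxodicarboxylate carrier, is the longest gene of the family at 518.5 kb, and its summits all lay over 5 kb from both ends.

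Regions near carrier genes were shared between libraries about as often as those near all genes. Of 115 regions, 38.3% came from 1 library, 33.9% from 3 or more and 4.35% from all 6. For the 28685 regions near all protein-coding genes these shares were 46.5%, 32.7% and 4.46%. Of the 39 carrier regions with 3 or more libraries, 25 lay within 1 kb of a gene end, and the carrier was the nearest protein-coding gene for 30. For these counts the shares over regions near all genes are not given here. In 27 of the 44 genes, an end of another protein-coding gene lay within the gene or 5 kb of it.

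Where a carrier gene had a summit near an end, the closest was within 1 kb for 70.8% to 82.1% of these genes, depending on the library. For all genes with a summit this share was 55.7% to 80.97%. It was above the carrier share in day 15 replicates 2 and 3, at 80.97% and 79.6% against 79.3% and 76%. In the other libraries it was below the carrier share. The median distance for carrier genes was 323, 216 and 166 bp in day 15 replicates 1, 2 and 3. In day 12 replicates 1, 2 and 3 it was 165, 406 and 735 bp. For all genes with a summit it was 297, 202 and 189 bp on day 15, and 383, 790 and 497 bp on day 12. The carrier genes were not uniformly closer or farther than all genes.

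Gene bodies, the part over 5 kb from both ends, held summits mainly in the longest lists. Of the 32 carrier genes with such a part, 17 had a body summit in at least 1 library. The number of body summits was 51, 7 and 6 in day 15 replicates 1, 2 and 3, and 0, 15 and 38 in day 12 replicates 1, 2 and 3. All protein-coding genes showed the same order by list length. Their bodies held 2.90, 0.449 and 0.291 summits per 100 kb in day 15 replicates 1, 2 and 3. In day 12 replicates 1, 2 and 3 they held 0.206, 1.38 and 2.42. Of 65 body regions, 16 had summits in 3 or more libraries and 0 in all 6. Matching shares of all genes and of their body regions are not given here.

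Calls resting on the gene body alone, with a body summit in at least 2 of 3 libraries and no call near an end, were few. On day 15 they were SLC25A21 and SLC25A24, against 6.37% of all genes, and on day 12 SLC25A20 and SLC25A37, against 12.4%. With day 15 replicate 1 left out, the day 15 number was 0, and with day 15 replicate 3 left out it was 1. Without day 12 replicate 2 or replicate 3 the day 12 number was 0. Shares of all genes without these libraries are not given here.

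SLC25A13 (citrin), the aspartate/glutamate carrier of liver, had the most body summits. They numbered 15, 0 and 0 in day 15 replicates 1, 2 and 3, and 0, 6 and 11 in day 12 replicates 1, 2 and 3. Per 100 kb of body this was 7.93 in day 15 replicate 1 and 3.17 and 5.81 in day 12 replicates 2 and 3. Over all protein-coding gene bodies the density was 2.90 in day 15 replicate 1 and 1.38 and 2.42 in day 12 replicates 2 and 3. Of its body regions, 5 had a summit in each of these 3 libraries, all of set B. That farthest from an end lay 80.5 kb inside (chromosome 9, 75899971 to 75900104).

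Its paralogue SLC25A12 had body summits at 2.59 and 0.862 per 100 kb in day 15 replicates 1 and 2 and 0.862 in day 12 replicate 3, against 2.90, 0.449 and 2.42 over all genes in these libraries. The other 3 libraries had none. SLC25A21 had 8, 1 and 0 body summits in day 15 replicates 1, 2 and 3, and 0, 0 and 7 in day 12 replicates 1, 2 and 3. At 1.57 per 100 kb in day 15 replicate 1 and 1.38 in day 12 replicate 3, its density was below that of all genes. A region 102 kb inside its lower end had summits of 2 day 15 libraries and 1 day 12 library (chromosome 7, 62910156 to 62910329).

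SLC25A26 had 7, 1 and 1 body summits in day 15 replicates 1, 2 and 3, and 0, 3 and 6 in day 12 replicates 1, 2 and 3. A body region 42.5 kb from its higher end had summits in every library but day 12 replicate 1 (chromosome 13, 47867112 to 47867390). An end of LRIG1, which overlaps SLC25A26, was slightly nearer, at 41.6 kb.

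**Figure D4:**
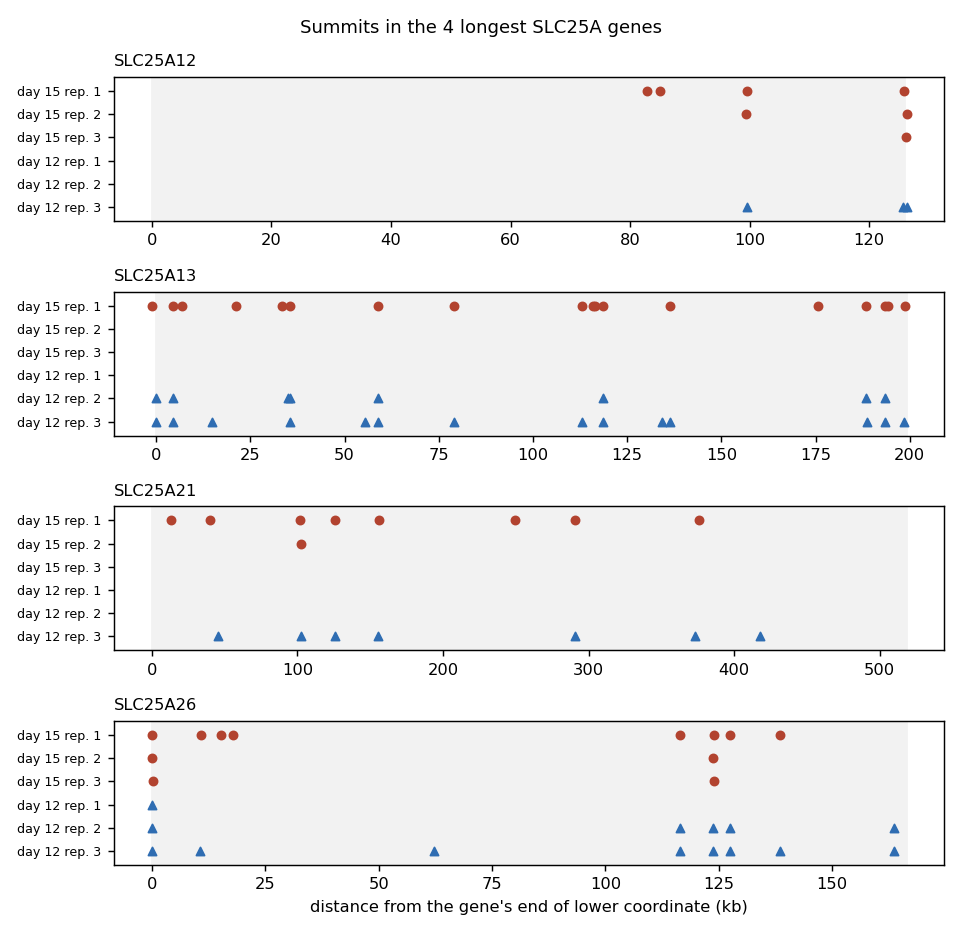
Position of every summit in the 4 longest SLC25A genes and 5 kb on either side, as distance (kb) from the gene's end of lower coordinate, with 1 line per library. The grey area is the gene, red points are day 15 libraries and blue triangles day 12 libraries. SLC25A13 has summits along its length in day 15 replicate 1 and day 12 replicates 2 and 3 and none in the other libraries, while SLC25A26 has a summit at its lower end in all 6.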

How the data were processed

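The submitters' processing notes list the tools Bowtie2 (2.3.5.1), SAMtools (1.9) and MACS2 (2.1.2) and the genome susScr11. For the threshold, the input, duplicates and pooling, the method is not given in the sources used here. The deposited score is the −log10 of a p-value or of a q-value, which of these is unstated, and it was used for ranks and filters inside each list. Depth per sample is unknown.

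Summits on chromosomes 1 to 18, X and Y were matched to a RefSeq gene table of Sscrofa11.1 with Python 3.11.15, numpy 2.4.6 and pandas 2.3.3. A summit was near a gene when within 5 kb of either end, and in its body when inside and farther from both ends. The table has no strand, exons or sequence, so no promoter or motif is shown. Counting was tested on simulated lists. Every member is named except 1, which is counted but not reported here. The members and lists were chosen with earlier results of these data known, so no p-value is given over members. Library shares of all genes were compared by a two-sided exact permutation test. Alternatives were scores of at least 2 (chosen after seeing the data), 5 and 10, equal lists, windows of 1 kb or the whole gene with 5 kb either side, all 3 libraries of a day, genes without neighbours, processing sets, a replicate block and each library left out.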

Additional observations from a re-analysis of the deposited data

How the results depend on the processing

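The higher share of carrier genes with a summit on day 15 kept its direction in every alternative run, between 4.55 and 29.5 percentage points with 1 library left out. The share over all genes also kept its direction, between 2.70 and 21.2 points with 1 library left out (exact permutation p from 0.3 to 0.9), and p was 0.2 at the lowest, with equal lists and with a window of 1 kb. Carrier genes called on day 15 fell to 12 with a score of at least 10, 16 with equal lists and 12 among the 17 genes without another gene end in their window. Those called on day 12 fell to 14 and 10 with scores of at least 5 and 10, 8 with equal lists, 11 when all 3 libraries were required and 10 without neighbours. With a library left out they ranged from 11 to 25. Genes with a summit in all libraries numbered 4 and 1 with scores of at least 5 and 10, 1 with equal lists, 5 with a window of 1 kb and 3 without neighbours, and 9 to 14 with a library left out. The day 15 pattern (3 of 3 against 0 of 3) held for 0 with equal lists, 1 without neighbours and 3 to 8 with a library left out. It held for 2 with scores of at least 2 or a window of 1 kb, and for 3 with scores of at least 5 or 10. SLC25A22, SLC25A41 and SLC25A42 were not among these genes with scores of at least 5 or 10. Body-only calls on day 15 were 0 with equal lists. With a library left out they ranged from 0 to 2 on each day. Most of the counts in this paragraph have no share of all genes beside them. They cannot be read as a result about the carriers. For the 8 genes that differed by at least 2 libraries, 31 of 96 values moved by 1 library or more, and that of SLC25A39 turned to -1 with a window of 1 kb. The causes were not tested, beyond fewer genes or stricter rules by construction.

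Between days, the correlations of deviations from the day means were -0.441, -0.0271 and -0.337 for replicates 1, 2 and 3. Lists of the same replicate number differed in length, so these values cannot show whether replicate numbers pair the libraries. With the replicate block, the difference of 12.4 points over all genes gave an exact sign-flip permutation p = 0.75. Unknown depth and lists of unequal length limit every presence and absence given here.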
